A study of Mus musculus with 9 samples.

Results

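The cytosolic ribosome is built from ribosomal RNA and a set of proteins whose genes are named Rpl (large subunit), Rps (small subunit) and Rplp (the acidic stalk of the large subunit). The genes described here were chosen by symbol alone, with no measured value in the rule. It takes every gene called Rpl or Rps with a number, plus Rplp0, Rplp1 and Rplp2, without pseudogenes that carry a -ps ending. The number may be followed by the letters l, a or x, also combined as in Rpl36al, and by a closing digit as in Rps3a1. The rule found 86 genes among the 27179 in the table, 54 of the large and 32 of the small subunit. A mean of at least 10 normalized counts was needed to enter the test, and 82 of the 86 reached it, 50 of the large subunit and all 32 of the small. The other 4 (Rpl10l, Rpl39, Rpl39l and Rpl3l) are described by their values only.

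The RNA came from flash-frozen liver of C57BL/6J mice labelled WT. All mice were 17 months old when they received, by retro-orbital injection, AAV8-TBG-saCas9 with a U6-driven guide RNA at 3e+11 vg per mouse, and a piece of liver (m-lobe) was taken 3 weeks later. In the sgRosa26 group (n = 4) the guide was directed at Rosa26, a locus commonly cut as a neutral control, and in the sgCcnd1 group (n = 5) at Ccnd1, which encodes cyclin D1, a partner of the kinases that start the cell cycle. Both groups therefore carried the virus and the nuclease. The TBG promoter is active in hepatocytes, so other liver cells were not meant to be edited, while the RNA is that of the whole tissue piece. The sgRosa26 libraries are called A to D and the sgCcnd1 libraries E to I, following the columns of the table, whose names hold no replicate number.

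Ribosomal protein mRNAs are among the most abundant in any growing cell, and nearly all of their products are present once in each ribosome; the stalk proteins P1 and P2 are known exceptions. In mammals these mRNAs begin with a run of pyrimidines, the 5' terminal oligopyrimidine or TOP motif, through which the kinase mTOR controls their translation. Control of this kind acts on translation, and only mRNA levels were measured here. In liver, ribosome production rises with regrowth, when hepatocytes enter the cell cycle.

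The start sites of 6 genes are shown to let windows with a pyrimidine run, the minority of those matched here, be read beside windows without one. Each line gives the 30 bases around an annotated start, 15 before it and 15 from it on, from RefSeq on GRCm38.p6, in the direction of the gene. Capitals mark the longest run of C and T where it has at least 8 bases.
Rpl35, large subunit, chr2:39005117-39005146, minus strand: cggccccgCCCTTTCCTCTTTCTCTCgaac
Rpl28, large subunit, chr7:4792950-4792979, plus strand: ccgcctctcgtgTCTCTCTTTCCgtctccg
Rps6, small subunit, chr4:86857353-86857382, minus strand: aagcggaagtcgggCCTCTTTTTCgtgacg
Rps24, small subunit, chr14:24490663-24490692, plus strand: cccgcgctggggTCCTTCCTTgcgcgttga
Rps15, small subunit, chr10:80292416-80292445, plus strand: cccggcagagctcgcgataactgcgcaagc
Rpl41, large subunit, chr10:128549154-128549183, minus strand: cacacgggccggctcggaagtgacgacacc
The first 4 hold such a run and the last 2 do not in this window. Rps24 has a further annotated start. Of 76 annotated promoters that matched 64 of the genes, 38.2% had a run of at least 8 pyrimidines in the 15 bases on either side of the start, against 12.0% of all promoters in the reference. Some annotated starts lie a little away from the base where transcription begins, so a window without a run says only that these letters are not in it.

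The stretch before the start was searched as well. The letters GGAAGT, the core bound by ETS family factors such as GABP, were found on either strand in the 250 bases before the start of 34.2% of the promoters, against 19.7% of all promoters. TATAAA between 40 and 21 bases before the start was found in 1.32%, against 1.87% of all. The 100 bases before the start of Rps6, shown because they hold 3 copies, are on chr4:86857368-86857467, minus strand, with GGAAGT or its complement in capitals.
Rps6: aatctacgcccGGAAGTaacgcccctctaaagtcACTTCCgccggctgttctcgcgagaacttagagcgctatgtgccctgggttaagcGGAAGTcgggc
The same stretch before Rpl41 is on chr10:128549169-128549268, minus strand, and holds 1 copy.
Rpl41: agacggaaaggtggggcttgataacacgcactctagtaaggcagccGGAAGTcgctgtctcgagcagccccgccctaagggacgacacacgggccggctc
These matches are descriptions of letters; no binding was measured.

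The libraries held between 10840595 and 20176201 reads. Ccnd1 was 744 ± 110 normalized counts (SD, n = 4) in sgRosa26 and 362 ± 40.6 (SD, n = 5) in sgCcnd1, which is -1.03 on the log2 scale (limma adjusted p = 0.0116), so the libraries carry the labelled difference. Without library B, D, F, H or I this adjusted p lay between 0.0558 and 0.0857, with the fold change between -1.02 and -0.96. The transcript of the Rosa26 locus stood at 114 ± 29.5 and 116 ± 11.5. All 8 hepatocyte markers were measured above the minimum, with a summed level of 1742080 to 2042400 in sgRosa26 and 1641320 to 2111680 in sgCcnd1. Of 10 leukocyte markers, none was at 0 on average, all 10 had negative fold changes (47.1% of all genes), 6 had an unadjusted p under 0.05 (5.74% of all genes in that direction), 0 were called by limma after adjustment, and their summed level was 1308 to 1577 in sgRosa26 and 927 to 1215 in sgCcnd1. For 4 stellate cell markers, 3 with negative fold changes, the sums were 2435 to 3949 and 2253 to 3317, and Col1a1 had the smallest p (log2 fold change -0.76, limma adjusted p = 0.399). For 4 cholangiocyte markers, 2 of them negative, the sums were 233 to 357 and 170 to 277, and Sox9 was at -0.51 (limma adjusted p = 0.346). Sums of the Kupffer, endothelial and red cell markers overlapped between the groups, with 2 of 4, 3 of 4 and 2 of 4 negative, and none of these markers was at 0 on average. The part of these cell types in the results below was not tested. In bulk tissue, fewer cells of a type and less RNA per cell cannot be told apart.

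No ribosomal protein gene passed the test between sgCcnd1 and sgRosa26. After adjustment over 12993 genes by limma, 0 of 82 were higher (background 0.0% of all genes) and 0 were lower (background 0.0077%, which is Ccnd1 alone). At an unadjusted p under 0.05 there were 3, or 3.66%, all lower, where 5.22% of all genes were higher and 5.74% lower. That count of 3 was 0 without library B, D or I, 1 without E or G, and 9 without F. Without library H it was 3 again, with 1 of them higher. The shares over all genes in these fits were not worked out. With edgeR (TMM scaling) on the reads recovered from the table, 0 members were called, against 0.0% of all genes higher and 0.0077% lower, and 3 had an unadjusted p under 0.05, against 4.42% higher and 6.15% lower. DESeq2 called 0 members too, while it called 0.316% of all genes higher and 0.585% lower, and 3 members had an unadjusted p under 0.05, against 4.71% higher and 5.49% lower. No member had groups that did not overlap, where 1.97% of all genes had every sgCcnd1 library below and 1.92% had every one above the sgRosa26 libraries.

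The fold changes were small and close to each other. They ran from -0.27 to 0.29 (Rplp1) on the log2 scale, with a median of -0.04 for the large subunit and -0.04 for the small, beside 0.01 for all genes tested and 0.06 for the 4011 genes whose mean is 500 or more. Negative values were found for 56 of the 82 members, 68.3%, against 47.1% of all genes and 33.1% of genes whose mean is 500 or more. This count was 41 without library B, 42 without D, 40 without E, 42 without I and 70 without F, and the median over the members was then between -0.09 and 0.01. The 95% interval of the fold change lay within a log2 of 0.5 either way for 73 of the 82, and within 1 for 81. The exception is Rpl32l, a gene at 20.5 normalized counts on average.

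**Figure D1:**
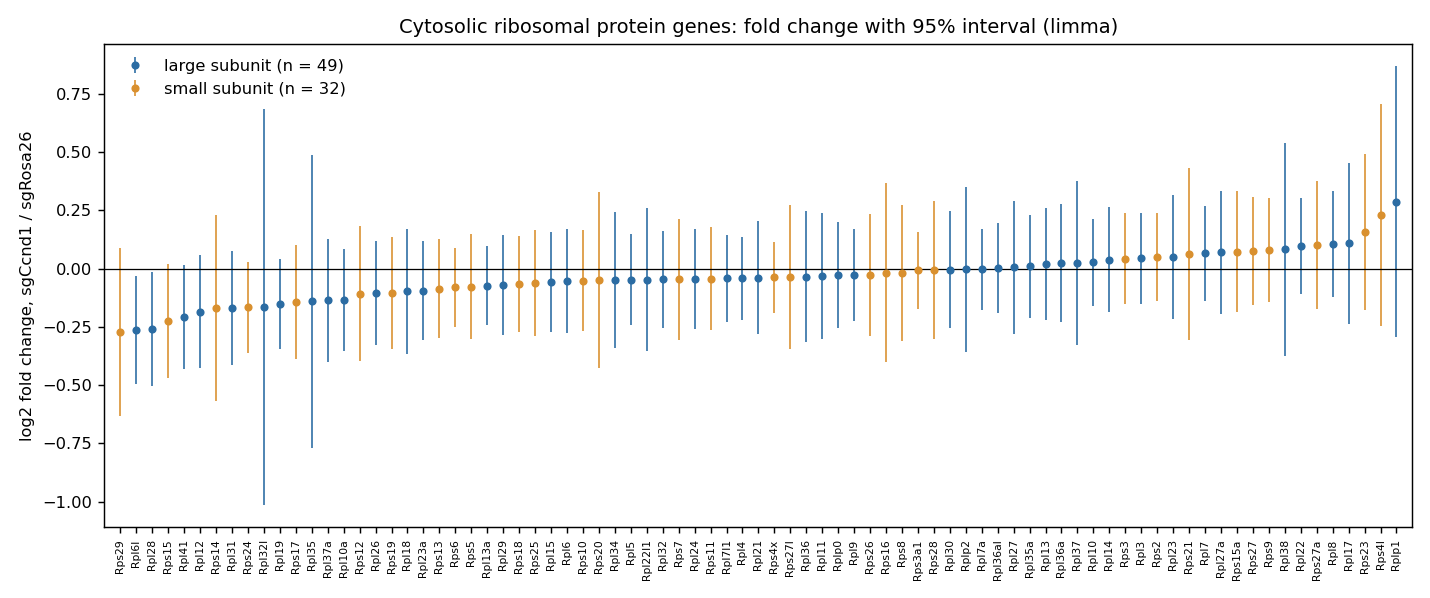
Each point is the log2 fold change (sgCcnd1 over sgRosa26) of 1 ribosomal protein gene with its 95% interval from limma, in order of size, with 49 large and 32 small subunit genes in separate colours. Values run from -0.27 for Rps29 to 0.29 for Rplp1, with the subunits mixed along the order, and the longest interval is that of Rpl32l.

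The summed share of the family and the balance of its subunits differed between the groups by less than the SD within them. Ribosomal protein genes made up 1.09%, 1.27%, 1.03% and 1.13% of the normalized counts of A to D, in that order, and 1.0%, 1.19%, 1.05%, 1.08% and 0.973% of those of E to I. The means were 1.13 ± 0.102% (SD, n = 4) and 1.06 ± 0.0852% (SD, n = 5), with overlapping ranges. The ratio of summed large to summed small subunit counts was 1.57 ± 0.0462 in sgRosa26 and 1.58 ± 0.0271 in sgCcnd1, and between 1.53 and 1.63 in single libraries. These sums are given without a test.

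Among the genes of the stalk, which recruits the elongation factors, Rplp1 varied most. Rplp1 was at 3387, 4553, 2183 and 1723 normalized counts in A to D and at 3532, 4302, 2080, 4013 and 3425 in E to I. Libraries C, D and G were low and B and F high, so each group held low and high libraries. Its log2 fold change was 0.29 with an SE of 0.268 (limma adjusted p = 0.714). Leaving out 1 library at a time gave 0.06 to 0.53. Rplp0, the protein that anchors the stalk, was at 5888, 6360, 6130 and 5415 in A to D and at 6031, 6845, 6054, 5629 and 4760 in E to I. Rplp2, the partner of Rplp1 in the stalk, was between 966 and 1402 in sgRosa26 and between 867 and 1615 in sgCcnd1. Rplp0 and Rplp2 had log2 fold changes of -0.03 and -0.00, and neither group stood apart.

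RPL5 and RPL11 bind the 5S ribosomal RNA, and outside the ribosome they hold back MDM2, the ligase that degrades p53. Rpl5 was at 3477, 3358, 3042 and 3103 normalized counts in A to D and at 3116, 3633, 3209, 3043 and 2745 in E to I. Rpl11 was at 1879, 2538, 2037 and 2710 in A to D and at 2051, 2610, 2413, 2161 and 1926 in E to I. Both had fold changes close to 0, at -0.05 and -0.03. Mdm2 itself was at 695 ± 85.1 (SD, n = 4) and 558 ± 39.2 (SD, n = 5), which is -0.31 on the log2 scale (limma adjusted p = 0.307).

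Among the smallest p-values were those of Rpl28 and Rpl6l, both named as large subunit genes. Rpl28 was at 3058, 3222, 3258 and 3900 in A to D and at 2763, 3276, 2775, 3035 and 2245 in E to I. Its log2 fold change was -0.26 with an SE of 0.113 (limma adjusted p = 0.433, exact two-sided permutation p = 0.0794 over all splits into 4 and 5 libraries, which allow no p below 0.00794), and library F lay inside the control range while the other 4 sgCcnd1 libraries were below it. Rpl6l, annotated in RefSeq as a pseudogene on chromosome 10, was at 242, 236, 225 and 237 in A to D and at 194, 233, 191, 203 and 163 in E to I. The fold change was -0.26 (limma adjusted p = 0.393, exact two-sided permutation p = 0.0238), with all 5 sgCcnd1 libraries below the sgRosa26 mean. Both genes kept this sign in every alternative analysis run, and neither reached an adjusted p under 0.05 in any.

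**Figure D2:**
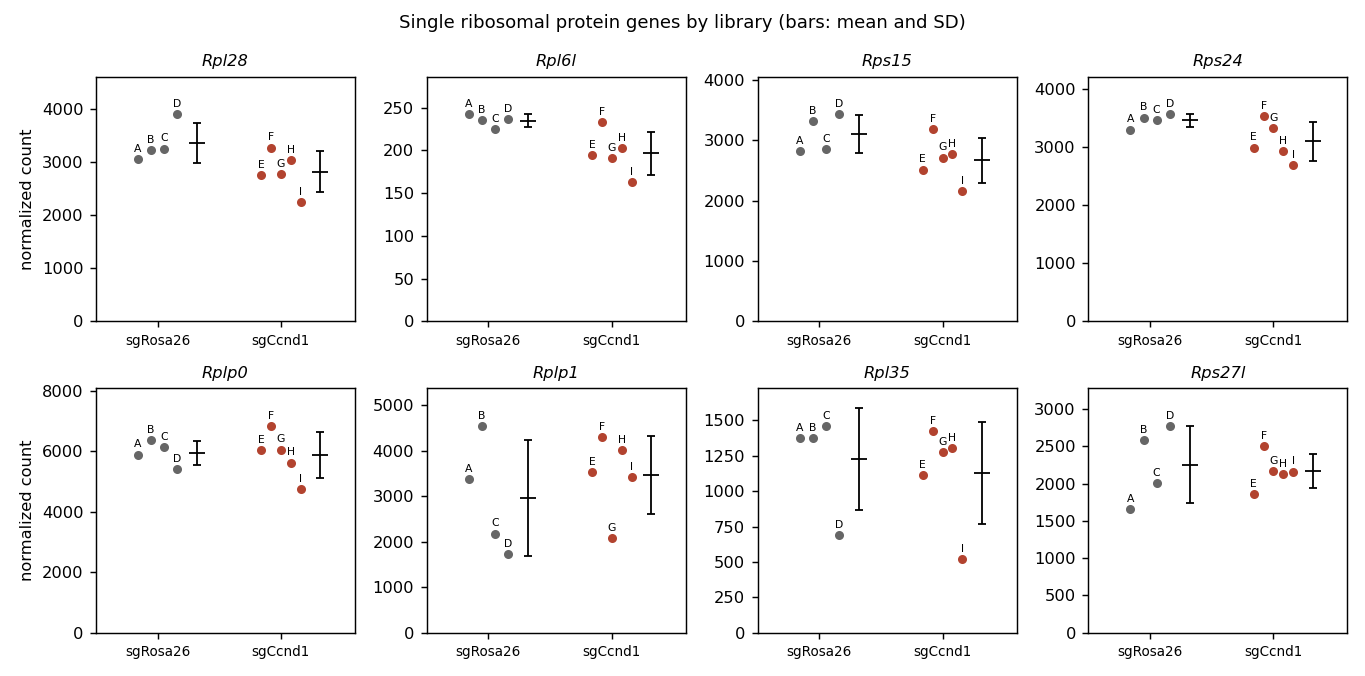
Normalized counts of 8 ribosomal protein genes by library (letters), with the mean and SD of each group as bars; axes start at 0. Rpl28, Rpl6l, Rps15 and Rps24 have lower sgCcnd1 means but overlapping groups, while Rplp1 and Rpl35 have low libraries in both groups.

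Other small p-values were those of Rpl41, Rps15, Rps24, Rpl19 and Rpl12, all with negative fold changes. Rpl41, a very short basic peptide of the large subunit, was at 2316 ± 171 (SD, n = 4) and 2017 ± 274 (SD, n = 5). Rps15, a protein of the small subunit head, was at 3105 ± 314 and 2669 ± 374. Rps24, one of the genes mutated in Diamond-Blackfan anaemia, was at 3454 ± 113 and 3093 ± 337. Rpl19 was at 2961 ± 292 and 2663 ± 191, and Rpl12 at 2101 ± 60.2 and 1869 ± 291. These 5 had log2 fold changes between -0.22 and -0.15 and limma adjusted p-values from 0.490 to 0.563. Rpl19 was at -0.09 without library D and Rpl12 at -0.09 without library I.

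Diamond-Blackfan anaemia, an inherited failure of red cell production, is caused by loss of 1 copy of any of several ribosomal protein genes. Of 12 such genes listed, 0 were called, and their median log2 fold change was -0.05, with 11 of 12 negative, beside 47.1% of all genes and 68.3% of all members. Rps19, the gene most often mutated in that disease, was at 1605, 1752, 1351 and 1947 normalized counts in A to D and at 1484, 1809, 1492, 1519 and 1404 in E to I. The fold change of Rps19 was -0.10, between -0.20 (without C) and -0.02 (without D) on leaving out 1 library, and the groups overlapped. Rps29, listed there too, had a fold change of -0.27 (SE 0.167, limma adjusted p = 0.567), and its libraries spread from 1357 to 2466.

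The list made for the rim of the exit tunnel, where the growing chain leaves the ribosome, holds 9 genes, and 8 were tested. It includes Rpl24, whose place at the rim is not established here. The median of the 8 was -0.10, with 0 called. Rpl35, singled out after its values were seen, was at 1372, 1376, 1461 and 689 in A to D and at 1115, 1423, 1276, 1305 and 521 in E to I. One library of each group, D and I, held far less of it than the rest. Its log2 fold change was -0.14 with an SE of 0.289, and it was -0.40 without library D and 0.12 without library I. Rpl17 was at 288, 430, 279 and 260 in A to D and between 261 and 395 in sgCcnd1, with a log2 fold change of 0.11, which was 0.03 without library D and 0.27 without B. The 2 rows of Rpl17 pseudogenes held 29.7% of the combined Rpl17 signal, the largest such share among the parents that have such rows.

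At the mRNA entry channel, Rps2 and Rps3 had fold changes of 0.05 and 0.04. Rps6, the small subunit protein phosphorylated downstream of mTOR, was at 2873, 3242, 3201 and 3179 in A to D and at 2833, 3130, 3124, 3008 and 2692 in E to I, a log2 fold change of -0.08, which was -0.05 without library I and -0.12 without A. Its libraries were among the least variable of the family, with a coefficient of variation of 6.31%. Rps27a, made as a fusion with ubiquitin, was at 1194, 1605, 1192 and 1207 in A to D and at 1293, 1799, 1357, 1336 and 1199 in E to I. Libraries B and F were the high ones. Rps23, a protein of the decoding centre, and Rps4l had the largest positive fold changes after Rplp1, at 0.16 and 0.23. On leaving out 1 library, Rps4l, a transcribed pseudogene in RefSeq, ran from 0.12 (without D) to 0.41 (without H), and the sign of Rps23 turned without library C.

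Some paralogs of ribosomal protein genes can replace their partner in the ribosome. For 8 pairs, the share of the paralog in the summed counts of the pair is given without a test. Whether each of these paralogs replaces its partner was not measured. Rps27l, a p53 target, made up 53.0 ± 5.99% (SD, n = 4) of the summed Rps27 and Rps27l counts in sgRosa26 and 51.1 ± 1.73% (SD, n = 5) in sgCcnd1. Rpl22l1 made up 15.6 ± 1.67% of its pair with Rpl22, and 14.4 ± 1.63% in sgCcnd1. Rpl36al made up 61.8 ± 1.38% and 61.5 ± 1.84% of its pair with Rpl36a. The share of Rpl7l1 with Rpl7 was 19.3 ± 2.36% and 18.1 ± 1.87%, and that of Rps4l with Rps4x was 7.92 ± 1.71% and 9.51 ± 2.36%. Both Rps4l and Rpl6l are annotated in RefSeq as pseudogenes, Rps4l as a transcribed one, so neither row is evidence of a protein that could replace the partner. Rpl6l made up 8.81 ± 1.08% of its pair with Rpl6 in sgRosa26 and 7.67 ± 0.387% in sgCcnd1, a gap larger than either SD. The groups overlapped, with 7.92% in sgRosa26 library D and 8.08% in sgCcnd1 library F. Library B was the highest, at 10.3%. Rpl32l and Rpl3l made up less than 1% of their pairs in both groups on average. These are shares of normalized counts, not of molecules, since the transcripts differ in length.

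Level per transcript length, the scale on which genes can be compared, differed widely among the members. The highest were Rpl10 at 6715, Rplp1 at 6501, Rps27 at 5861 and Rps15 at 5725 normalized counts per kilobase. The median of the large subunit genes tested was 2373 and that of the small was 2584. Rpl10l was at 0 in all 9 libraries, Rpl39l had reads in library H alone, and Rpl3l averaged 1.46 normalized counts. RPL3L and RPL10L are known as forms of muscle and testis. Rpl39, which encodes a broadly used protein of the exit tunnel, averaged 2.35 normalized counts, with library values between 0 and 7.0. It was singled out for this after its values were seen, and its low value is the count in this table, not a measure of the protein.

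Ribosomal protein genes have many processed copies in the genome, and the sequence they share with other genes was counted. Its part in the levels was not tested. Over 83 members with a transcript in the annotation, a median of 60% of the 50-base windows of the transcript were also found in another gene, and 52 of the 83 exceeded 50%. Members with up to 25% shared windows had a median log2 fold change of -0.04, and those with over 75% had -0.05. The 35 rows with a -ps ending held 0.255% of the signal of members and pseudogenes together. How the counting treated reads with several matches is not given in the sources used here, so single levels of members with much shared sequence are uncertain.

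**Figure D3:**
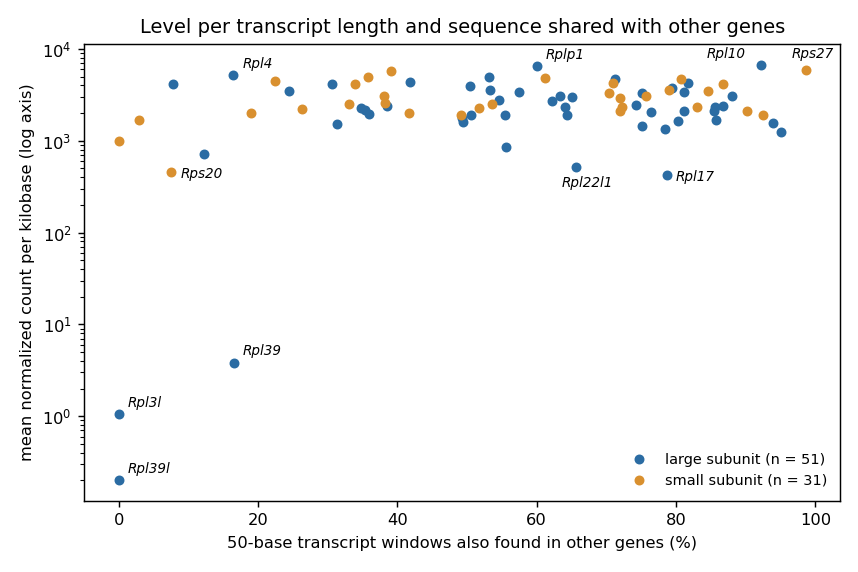
Mean normalized count per kilobase of transcript (log axis) against the percentage of 50-base windows of the transcript also found in other genes, for the members with a transcript and a level above 0. Members that were tested lie between 421 and 6715 at any degree of sharing, and Rpl39, Rpl3l and Rpl39l lie far below the rest.

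The members shifted together from library to library. Library F was the highest of the 9 for 41 of the 82 members, 50% against 12.0% of all genes. Library D was the highest for 21, or 25.6% against 12.9%. Library I was the lowest for 29, or 35.4% against 12.4% of all genes, and library E for 18, or 22.0% against 6.72%. The median deviation of the members from their own mean was -0.02, 0.13, -0.08 and 0.12 in A to D and -0.13, 0.20, 0.04, -0.01 and -0.16 in E to I. The highest and the lowest library thus both came from sgCcnd1, and the group means of these medians were 0.04 ± 0.107 (SD, n = 4) and -0.01 ± 0.142 (SD, n = 5). After removing group means, the median correlation of a member with the mean of the others over the 9 libraries was 0.767, and 53 of 82 exceeded 0.7. Of 12911 genes outside the rule, 882 exceeded 0.7 with the mean of the members, and the median of the 12911 was -0.00. The genes of a library share its scaling factor, so these values are a description.

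**Figure D4:**
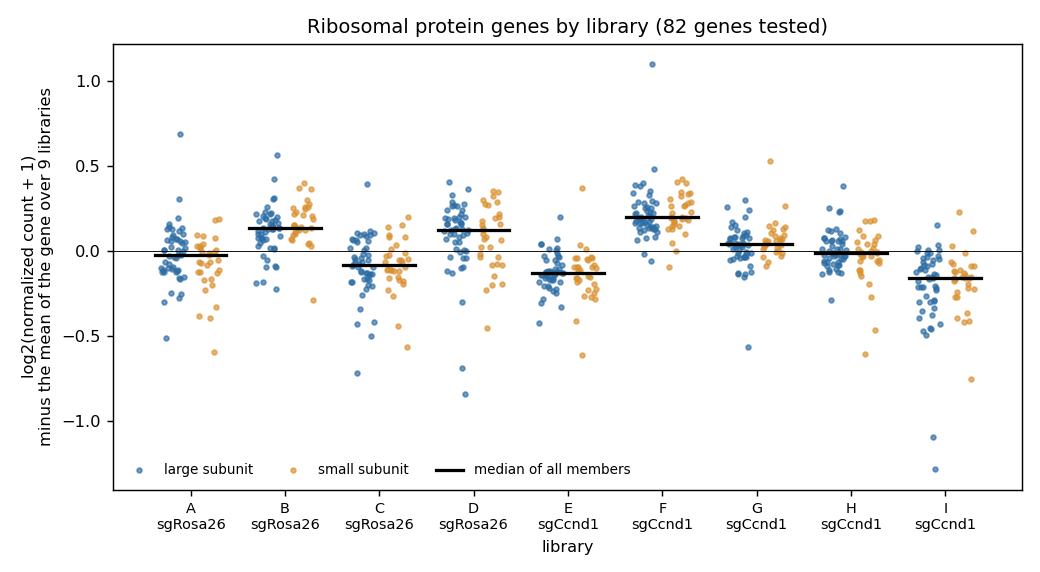
Each point is 1 member in 1 library, as log2(normalized count + 1) minus the mean of that gene over the 9 libraries, with large and small subunit genes side by side and black lines at the median of all members. The medians run from -0.16 in library I to 0.20 in library F, both sgCcnd1, and the subunits shift together in each library.

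Other short, abundant transcripts shifted with the members in some libraries and apart from them in others, most of all in A. For 246 genes outside the family with a transcript of at most 1000 bases and a mean of at least 500, the median deviation was -0.23, 0.12, -0.07 and 0.21 in A to D and -0.13, 0.20, 0.02, 0.06 and -0.10 in E to I. For 3641 genes with longer transcripts and the same minimum mean it stayed between -0.09 and 0.05. Genes of the mitochondrial ribosome, 77 of which were tested, had medians from -0.20 in A to 0.19 in D. The part of transcript length in the shared movement of the members was not tested.

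**Figure D5:**
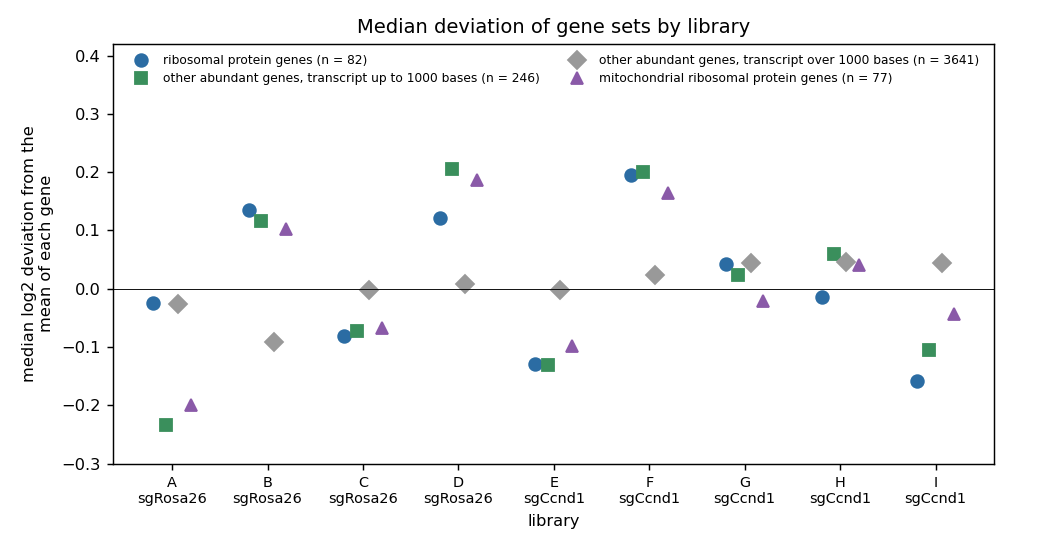
Median log2 deviation from the mean of each gene, by library, for the 82 members, 246 other abundant genes with transcripts of up to 1000 bases, 3641 with longer transcripts, and 77 mitochondrial ribosomal protein genes. Short transcripts and mitochondrial ribosomal genes lie near the members in B, C, E and F and below them in A, while long transcripts stay near 0.

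A few members did not follow the others. Rps4x, an X-linked gene of the small subunit, correlated with the rest at -0.35 and had the lowest coefficient of variation, 4.03%. Rpl7l1 and Rps4l were near 0, at -0.07 and -0.04, and Rplp1 was at 0.14. These members were singled out after their values were seen.

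Among genes that act with the ribosome, limma called none in the lists below. Of 4 ribosomal proteins with other symbols, all 4 had negative fold changes (47.1% of all genes), 0 were called and 1 had an unadjusted p under 0.05; the most marked was Rpsa, the laminin receptor of the small subunit, at 5662 ± 200 (SD, n = 4) and 4932 ± 554 (SD, n = 5), which is -0.21 on the log2 scale (limma adjusted p = 0.450). Among 15 elongation factors and other TOP mRNAs, 11 were positive and 4 negative, with a median of 0.06, the same as the median of genes whose mean is 500 or more, 2682 of 4011 of which were positive. None of these 15 had an unadjusted p under 0.05. Eif4b, an initiation factor, was at 4769 ± 383 and 5284 ± 180 (limma adjusted p = 0.512), with all 5 sgCcnd1 libraries above the sgRosa26 libraries, as in 1.92% of all genes. Of 30 initiation factors, 0 were called by limma and 3 had an unadjusted p under 0.05, 1 higher and 2 lower, beside 5.22% and 5.74% of all genes. Eif1a had -0.25 (limma adjusted p = 0.314) and Eif3a 0.26 (limma adjusted p = 0.354). Of 55 ribosome biogenesis factors, 0 were called by limma and 0 had an unadjusted p under 0.05, with a median of 0.04; the smallest p-values were those of Rrp9 and Gtpbp4, with fold changes of 0.25 and 0.29. Of 14 genes of RNA polymerase I and its factors, 0 were called, 0 had an unadjusted p under 0.05 and the median was 0.00; Taf1a and Taf1b, of the factor that brings the polymerase to the rRNA genes, had 0.23 and -0.24. Of 12 regulators of TOP mRNA translation and ribosome number, 0 were called and 3 had an unadjusted p under 0.05, 1 higher and 2 lower, beside 5.22% of all genes higher and 5.74% lower; besides Mdm2, Larp4 had 0.27 (limma adjusted p = 0.337).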

How the data were processed

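Poly(A) RNA of liver pieces was sequenced in bulk. The deposited table holds a never-negative signal, which the authors call normalized counts, for 27179 genes; in each library the values are whole multiples of 1 number, so the reads were recovered (100% of the values above 0 came out whole to within 0.01 of a read, or 1e-06 of the value above 10000 reads; the value of 1 read in library H is too near 1 for this to be checked there). Per the submitters' processing notes the tools were Trim Galore 0.6.7, HISAT2 2.2.1, featureCounts 2.0.3, FastQC 0.74, MultiQC and DESeq2 2.11.40.8, with the builds mm10 and GRCm38; strand use and multiple matches are not given in the sources used here. Columns name a group but no replicate number.

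From these values log2(normalized count + 1) was computed for 12993 genes with a mean of at least 10. Fold changes refer to these values and understate the change of genes near the minimum. The groups were compared with limma 3.58.1 (lmFit, eBayes with trend, R 4.3.3), two-sided, adjusted by Benjamini-Hochberg over all genes, at 0.05; p-values measure the spread between these libraries. The procedure was tested on simulated data. Alternatives were pseudocounts of 0.1 and 10, no minimum or 100, quantile and 75th percentile scaling, pseudogene rows added to their parent, edgeR 4.0.16 (TMM, RLE) and DESeq2 1.42.0 on the reads, and leaving out each library. Transcript lengths and shared 50-base windows came from the GENCODE annotation of GRCm38, for 83 members; RefSeq positions matched all 86. Plots were made in Python 3.11.15 using matplotlib 3.10.9.

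The members, the lists and the tests were chosen with earlier results of these data known. Genes named are the 8 members with the smallest p, the 4 largest fold changes in each direction and the 4 highest levels per kilobase. Members with a stated role, members under the minimum and the 3 genes outside most correlated with the members are named too. The 2 genes with the smallest p in each other list were picked as well, but not all of them are named in the text. One further gene is not reported here and is absent from the plots that name genes; counts and medians over the members include it.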

Additional observations from a re-analysis of the deposited data

Results flagged for a closer look

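Of 60 groups of libraries examined for the genes named above and the summed values, 5 held 1 library far from the others of its group, where chance gives about 1 in 20, or 3. Rpl17 was at 430 normalized counts in sgRosa26 library B and between 260 and 288 in the other sgRosa26 libraries. Rps27a was at 1605 in library B against 1192 to 1207 in the other sgRosa26 libraries, and at 1799 in library F against 1199 to 1357 in the other sgCcnd1 libraries. Rps19 was at 1809 in library F, with the other sgCcnd1 libraries between 1404 and 1519. Rpl35 was at 689 in library D, with the other sgRosa26 libraries between 1372 and 1461. Over all 82 members tested, 7 of 164 groups held such a library, where chance gives 8.2.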

How the results depend on the processing

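No member was called in any of 22 alternatives. In the 16 that give it, the summed share lay between 1.08% and 1.16% in sgRosa26 and between 1.03% and 1.08% in sgCcnd1. The subunit ratio lay between 1.55 and 1.59 in sgRosa26 and between 1.57 and 1.59 in sgCcnd1. Leaving out 1 library cannot move a group mean by more than the spread between libraries, so these ranges are a description. Members with an unadjusted p under 0.05 numbered 0 without library B, D or I, 9 without F and 10 with quantile normalization. The share of all genes under each of these alternatives was not worked out, so these counts have no background beside them. The fold change of Rps23 ranged from -0.0025 (without library C, limma adjusted p = 0.996) to 0.26 on leaving out 1 library. Among members described by value, Rpl35, Rpl10, Rps27, Rplp0, Rplp2, Rpl5, Rpl11, Rps27l, Rpl22l1, Rpl36a and Rpl36al also changed sign in at least 1 alternative. The median over large subunit members lay between -0.09 and 0.01 on leaving out 1 library, and over small subunit members between -0.10 and 0.01. Ccnd1 missed the threshold without library B, D, F, H or I, as given above, and in edgeR without library H (adjusted p = 0.0560). Count models without library H were added after seeing the data. Over all genes, DESeq2 called 41 higher and 76 lower with its independent filter set to 0.05; its default setting of 0.1, also run, called 34 and 70, and 0.05 was kept after both counts, and an earlier result of these data that matched the first, were known. edgeR with TMM called 0 higher and 1 lower. The cause of these differences was not tested. No paired analysis was possible because no column name holds a replicate number. At 10840595 to 20176201 reads per library, Rpl10l, Rpl39, Rpl39l and Rpl3l had too few counts to be compared, and the cause of their low counts was not tested.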

Other observations

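Outside the family, the genes whose levels followed the mean of the members most closely over the 9 libraries, after removing group means, were Irf3 (r = 0.975), Vdac1 (r = 0.971) and Fuom (r = 0.968). They were picked as the highest of 12911 genes, so the values are a description. Irf3, a transcription factor of the interferon response, was at 992, 1050, 934 and 1044 normalized counts in A to D and at 922, 1160, 992, 994 and 860 in E to I, highest in F and lowest in I, the libraries that were most often the highest and the lowest for the members.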
